A study of Mus musculus with 36 samples.

Results

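A group of 55 probes, of 46019 on the array, rose within 1.5 h of the change from growth medium to low-serum medium in C2C12 cells and was not held above its starting level at 9 to 24 h. The members were chosen by their values on the deposited log2 scale. The mean of 3 arrays at 1 h or 1.5 h had to lie at least 0.5 above the mean at 0 h. The same-numbered arrays had to differ upwards in all 3 replicates at the higher of those times, and the mean difference from 0 h over 9, 12 and 24 h had to stay below 0.25. The rule sets no lower limit: that mean was within 0.25 of the 0 h level for 42 members and at or below -0.25 for 13, the lowest being F3 at -1.1. A mean rise of that size was found for 96 probes, and 85 of them rose in all 3 replicates. Of these, 30 were kept out by the limit on 9 to 24 h. The platform annotation gave 1 gene symbol to 45 of the members, which are 42 different genes, and no symbol to the other 10. All values at 0, 1, 1.5, 9, 12 and 24 h took part in the choice, so they are given below as description, and the tests are kept to 2, 6, 48, 96 and 144 h.

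Immediate-early genes are genes whose transcription starts within minutes of a stimulus, without new protein synthesis, through transcription factors already present in the cell. Serum response factor (SRF), which binds the CArG box, and the TEAD factors, which work with YAP and TAZ, drive many of them in response to serum, growth factors and changes in the actin cytoskeleton. Their products include short-lived transcription factors, inhibitors that shut the same signalling pathways off, and secreted matrix proteins, and most of their mRNAs decay quickly. In C2C12, a mouse myoblast line, withdrawal of rich serum starts exit from the cell cycle and fusion into myotubes.

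C2C12 cultures were sampled at 12 times with 3 arrays each, on Illumina Mouse WG-6 v1.1 BeadChips. The 0 h cultures were undifferentiated cells growing in DMEM with 20% fetal bovine serum. The cultures sampled at 1, 1.5, 2, 3, 6, 9, 12, 24, 48, 96 and 144 h were in DMEM with 2% horse serum. The triplicates came from successive passages of this 1 established line. Cultures given fresh rich medium were not analysed here, so the change of medium itself and the lower serum cannot be told apart.

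On the deposited scale the median probe of an array lay between 8.37 and 8.38, the lowest value was 8.33 and the highest 16.2. Values near the lower end are compressed, so differences of dim probes are understated. Of 6 myoblast markers, Cdh15, Des, Itga7 and Myod1 were at 12.74, 11.63, 10.75 and 10.19 at 0 h, while Myf5 and Pax7 were at 8.58 and 8.64, near the floor. The 4 endothelial and 4 osteoblast markers tested lay between 8.36 and 8.47 at 0 h. Among macrophage markers Adgre1 and Lyz2 were at 8.37 and 8.36 and Cd14 at 9.08, and among adipocyte markers Adipoq and Fabp4 were at 8.41 and 8.42, Pparg at 9.14 and Lpl at 12.52. The fibroblast markers Col1a1 and Pdgfra were at 10.65 and 9.92. The arrays lay on 6 chips, each within 1 replicate number. Within each replicate the arrays at 0, 1 and 1.5 h lay together on 1 chip, and those at 2, 3 and 6 h lay together, on that same chip in replicate 1 and on another in replicates 2 and 3. The arrays at 48, 96 and 144 h lay together, and were on the chip of the 6 h array in replicate 3 but not in replicates 1 and 2.

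Promoter sequences are shown for members picked because they carry a binding motif, and these are not all among the largest risers. RefSeq promoter windows, each 250 bases before to 50 after a start site, were at hand for 35 of the 42 genes, in build GRCm38.p6. The CArG box, searched on both strands, was in windows of 4 of these 35 genes, or 11.4%, against 1.81% of 27025 genes in all. The 4 genes were Srf itself, Egr2, Dusp5 and Fhl2. Egr2 and Fhl2 have a box in the windows of more than 1 start site, and Srf and Dusp5 have a pair of boxes close together. CArG boxes are in capitals, and each stretch reads 5′ to 3′ along its gene.
Srf (chr17:46556190-46556269, minus strand): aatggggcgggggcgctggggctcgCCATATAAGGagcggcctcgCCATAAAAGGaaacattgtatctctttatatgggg
Egr2, first start site (chr10:67537469-67537528, plus strand): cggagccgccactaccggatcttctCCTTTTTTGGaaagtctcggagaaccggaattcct
Egr2, other start site (chr10:67537772-67537831, plus strand): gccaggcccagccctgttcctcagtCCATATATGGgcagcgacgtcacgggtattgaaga
Dusp5 (chr19:53529038-53529107, plus strand): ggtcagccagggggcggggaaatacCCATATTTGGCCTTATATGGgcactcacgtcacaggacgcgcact
Fhl2, first start site (chr1:43196823-43196882, minus strand): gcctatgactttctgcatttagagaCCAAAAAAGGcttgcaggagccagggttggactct
Fhl2, other start site (chr1:43163962-43164017, minus strand): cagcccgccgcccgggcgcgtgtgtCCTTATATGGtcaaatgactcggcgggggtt

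The cAMP response element TGACGTCA, which is bound by CREB and ATF factors and reads the same on both strands, was in windows of 3 of the 35 genes, or 8.57%, against 2.03% of all genes. The 3 genes are a pair of signalling inhibitors and a transcription factor, with the element in capitals.
Errfi1 (chr4:150854994-150855051, plus strand): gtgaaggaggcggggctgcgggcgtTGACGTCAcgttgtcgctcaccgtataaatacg
Dusp1 (chr17:26508583-26508640, minus strand): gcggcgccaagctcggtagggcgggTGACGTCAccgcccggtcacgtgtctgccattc
Maff (chr15:79347466-79347519, plus strand): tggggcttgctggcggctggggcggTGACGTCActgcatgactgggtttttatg

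The TEAD motif GGAATG, or CATTCC on the opposite strand, was in windows of 11 of the 35 genes, or 31.4%, against 16.6% of all genes. The 35 genes have 56 windows and the 27025 genes 32851, and a gene with more windows has more room for a match. Counted by window the gap was smaller, at 19.6% against 14.7%. Shown are 3 of the members that rose most, with the motif in capitals.
Ccn1 (chr3:145650058-145650113, minus strand): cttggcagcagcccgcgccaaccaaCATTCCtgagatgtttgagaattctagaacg
Ankrd1 (chr19:36119970-36120079, minus strand): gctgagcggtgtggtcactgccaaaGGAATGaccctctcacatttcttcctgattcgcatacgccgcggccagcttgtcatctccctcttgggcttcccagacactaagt
Edn1 (chr13:42301244-42301299, plus strand): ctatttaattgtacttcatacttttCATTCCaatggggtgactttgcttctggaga
The AP-1 motif TGANTCA, on both strands, was in windows of 2 of the 35 genes, F3 and Sphk1, or 5.71% against 8.97% of all genes. It does not overlap TGACGTCA, which has another base in its middle. Counted by window, the shares were 14.3% against 1.63% for the CArG box, 5.36% against 1.79% for TGACGTCA and 5.36% against 7.81% for TGANTCA. A match is a string of letters and no measured binding, and the motifs were picked after the members were known.

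The members were split by the larger of their 1 h and 1.5 h values, which is called the early maximum, or maximum, here, although some members were higher still at a later time. It fell at 1 h for 32 members and at 1.5 h for 23. The members with the early maximum at 1 h were at a median of 0.73, 0.42, 0.11 and 0.06 above 0 h at 1, 1.5, 2 and 3 h. Those with the early maximum at 1.5 h were at a median of 0.38, 0.57, 0.59 and 0.46 at the same times and were still at 0.26 at 6 h. By median, the first group had thus lost most of its rise at 2 h, where the second was about as high as at 1.5 h. The split used the 1 and 1.5 h values, so a later course in the second group is partly built in. For some members these values were close, as for Maff at 0.56 and 0.57. In these bulk cultures, fewer cells of a kind and less RNA per cell cannot be told apart.

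**Figure D1:**
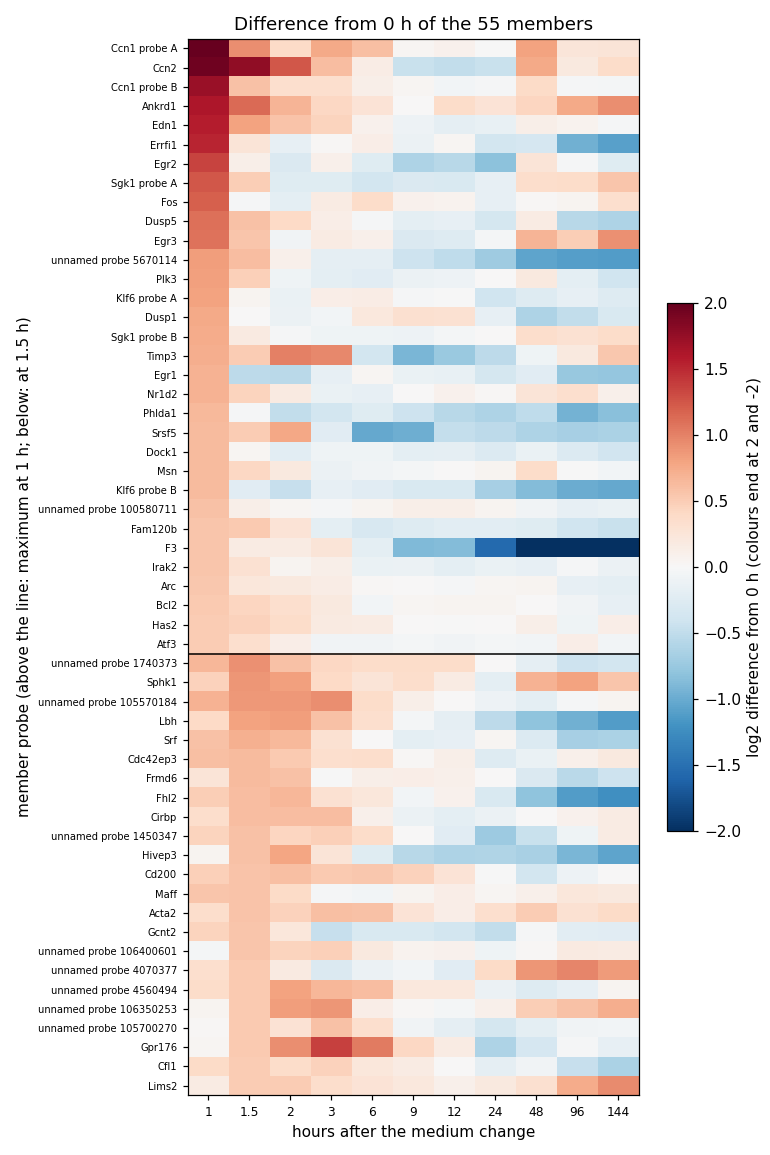
Difference from 0 h on the deposited log2 scale (colour, ending at 2 and -2) for each of the 55 members (rows) at the 11 later times (columns). The line separates the 32 members whose larger value of 1 and 1.5 h was at 1 h, above, from the 23 with it at 1.5 h, below; the values at 1, 1.5, 9, 12 and 24 h chose the rows.

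The largest rises were in secreted and matrix genes. Ccn1 and Ccn2 encode matricellular proteins that bind integrins and growth factors. On the brighter of its probes, Ccn1 was at 13.61, 11.96 and 12.68 at 1 h in replicates 1 to 3, against 10.91, 10.41 and 10.20 at 0 h, a mean difference of 2.25 ± 0.61 (SD, n = 3 same-numbered differences) or 4.74-fold. The arrays of the 2 times do not overlap, and replicate 1 was the highest at both. Its other member probe rose by 1.72 ± 0.26. Ccn2 was at 14.63, 14.36 and 14.48 at 1 h, against 12.41, 12.86 and 12.38 at 0 h, a difference of 1.94 ± 0.39 or 3.84-fold. At 2 h Ccn2 was still 1.24 above 0 h, which is 64.1% of its maximum, and the brighter Ccn1 probe kept 17.4% of its own.

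Edn1, the precursor of the vasoconstrictor peptide endothelin-1, was at 10.34, 10.41 and 10.60 at 1 h, against 8.75, 8.96 and 8.92 at 0 h. The difference of 1.57 ± 0.11 varied little between replicates, although the probe lay near the floor at 0 h. Timp3, a matrix-bound inhibitor of metalloproteinases, rose by 0.73 ± 0.47 at 1 h but was higher still at 2 h, by 1.01 ± 0.22. Gpr176, an orphan G protein-coupled receptor, was 0.52 ± 0.28 above 0 h at 1.5 h and went on to 0.93 at 2 h and 1.37 ± 0.08 at 3 h. F3, which encodes tissue factor, the starter of coagulation, Has2, a hyaluronan synthase, and Cd200, a membrane glycoprotein that restrains myeloid cells, had maxima of 0.55, 0.51 and 0.57. These 3 were among the smaller rises, and Cd200 was still 0.54 above 0 h at 6 h.

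Transcription factors made up 12 member probes of 11 genes. The zinc finger factors Egr2, Egr3 and Egr1 had maxima of 1.35, 1.09 and 0.70, all at 1 h. Egr2 was at 12.68, 12.41 and 12.44 at 1 h, against 11.05, 11.45 and 11 at 0 h. Egr1, the brightest of the 3, was at 15.36, 14.47 and 14.90 at 1 h, against 14.21, 14.13 and 14.29 at 0 h, and then lay below its starting level, by 0.53 at 1.5 h and 0.54 at 2 h. Its differences at 1.5 h were -0.16, -0.48 and -0.94 in replicates 1 to 3, so all 3 had crossed the 0 h level. Those of Egr2 were 0.95, -0.20 and -0.43, above 0 in replicate 1 alone, and those of Egr3 were 1.32, 0.39 and -0.05.

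Fos, a subunit of AP-1, was at 11.68, 10.09 and 10.30 at 1 h, against 9.11, 9.82 and 9.56 at 0 h. Replicate 1 rose far more than the others, and the mean difference of 1.19 had an SD of 1.21. At 1.5 h it was at 9.64, 9.52 and 9.22, and the groups at 1.5 h and 0 h overlapped. Srf was slower: it was at 13.70, 13.42 and 13.63 at 1.5 h, against 12.81, 12.73 and 13.08 at 0 h, and at 2 h it kept a difference of 0.65 ± 0.05 of its maximum of 0.71 ± 0.17. Klf6, a Krüppel-like factor, had 2 member probes with maxima of 0.81 and 0.63. Maff, a small Maf factor, Atf3, a stress-induced factor of the CREB family, and Nr1d2, which encodes the clock repressor REV-ERB beta, had maxima of 0.57, 0.50 and 0.70. Nr1d2 was uneven, since its 0 h arrays were at 10.52, 10.31 and 9.52. Hivep3, a zinc finger protein, and Lbh, a transcriptional cofactor, were highest at 2 h, at 0.79 and 0.84 above 0 h.

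Signalling enzymes and their inhibitors had the lowest median of the role groups at 2 h. Errfi1 (Mig6), a feedback inhibitor of the EGF receptor, was at 14.78, 14.79 and 15.19 at 1 h, against 13.42, 13.40 and 13.38 at 0 h, a difference of 1.52 ± 0.25. By 1.5 h the difference was 0.25 ± 0.38, within the spread of the replicates. Dusp5 and Dusp1, phosphatases that inactivate MAP kinases, had maxima of 1.1 ± 0.22 and 0.76 ± 0.54. Sgk1, a kinase induced by serum and glucocorticoids, was at 12.81, 13.00 and 13.22 at 1 h, against 11.47, 11.75 and 12.10 at 0 h on its brighter member probe, a difference of 1.24 ± 0.11, and 0.74 ± 0.08 on the other. The kinase Plk3 had a maximum of 0.82 and Sphk1, which makes sphingosine-1-phosphate, of 0.89. Phlda1, a pleckstrin homology-like protein, and Irak2, a kinase of interleukin-1 receptor signalling, had maxima of 0.65 and 0.55. The median of the 9 probes of this group was 0.76, 0.30 and -0.09 at 1, 1.5 and 2 h.

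Among 10 genes of the cytoskeleton and adhesion, Ankrd1, a titin-associated repeat protein of striated muscle, had the largest rise. It was at 13.98, 14.21 and 14.52 at 1 h, against 12.64, 12.69 and 12.55 at 0 h, a difference of 1.61 ± 0.32. The other 9 had maxima between 0.50 and 0.64. They are Fhl2 and Lims2, which carry LIM domains, the ERM protein Msn, its FERM-domain relative Frmd6, the actin-severing cofilin Cfl1, Cdc42ep3, an effector of Cdc42, Dock1, an activator of Rac, the synaptic cytoskeletal gene Arc, and smooth muscle actin Acta2. The remaining named members were the splicing factor Srsf5, the cold-inducible RNA-binding protein Cirbp, the survival factor Bcl2, Fam120b, and the glycosyltransferase Gcnt2, with maxima between 0.53 and 0.64.

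**Figure D2:**
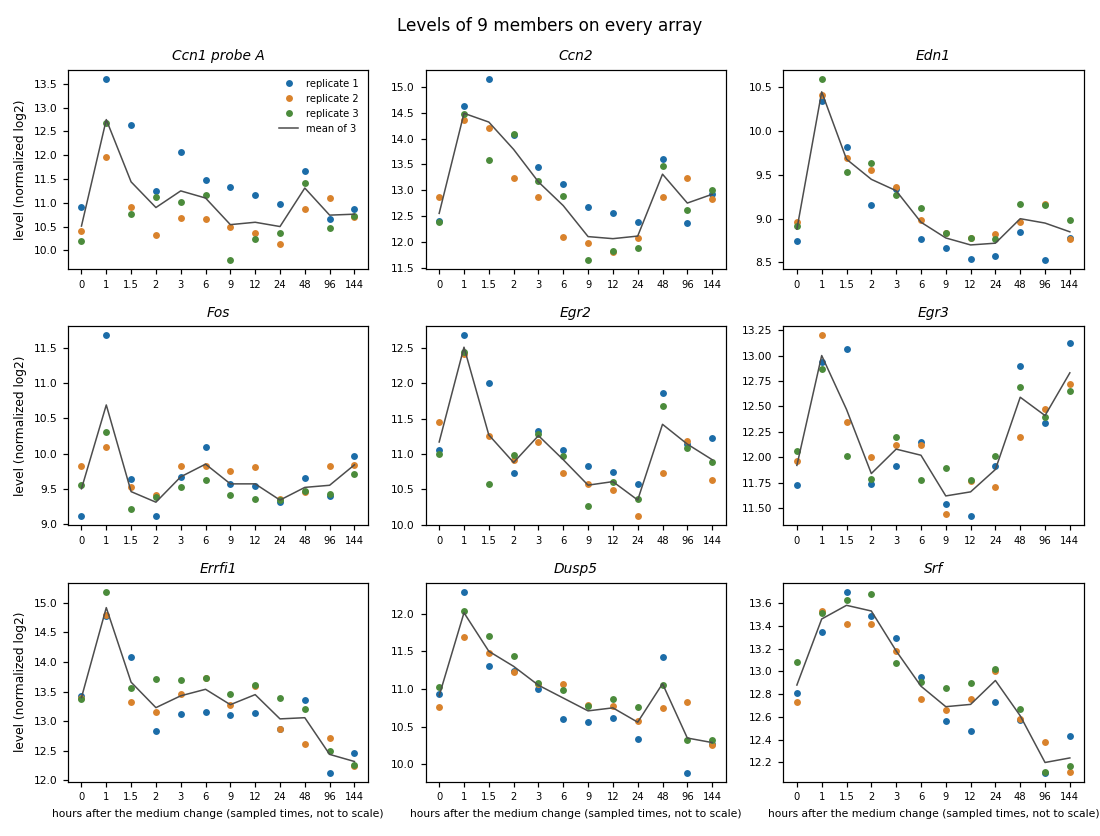
Level on the deposited log2 scale (vertical axis, scaled to each gene) of 9 members on every array at the 12 times; points are replicates 1 to 3 and the line is their mean. Ccn1, Edn1, Egr2, Egr3, Errfi1 and Dusp5 are highest at 1 h, Srf at 1.5 h, and the single high Fos array at 1 h is that of replicate 1.

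The decay differed between members. The difference from 0 h was first at or below 50% of its early maximum at 1.5, 2, 3, 6, 9 and 12 h for 16, 13, 10, 8, 6 and 2 members. Decay was looked for only after the early maximum, so the 16 at 1.5 h could only be members with it at 1 h. At 2, 3 or 6 h, 13 members were higher than at their early maximum, and 11 of these were among the 23 with the early maximum at 1.5 h.

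The replicates were out of step at 1.5 h. Over the 32 members with the early maximum at 1 h, the median difference from 0 h was 0.79, 0.87 and 0.76 at 1 h in replicates 1, 2 and 3, and 0.55, 0.38 and 0.15 at 1.5 h. Replicate 1 held the largest of the 3 differences at 1.5 h for 25 of these 32 members. At 2 h it did so for 4 of 32. Ccn2 was highest at 1.5 h in replicate 1, at 15.16, where replicates 2 and 3 were at 14.21 and 13.59. The arrays at 0, 1 and 1.5 h lay on 1 chip in each replicate, and the cause of this spread was not tested.

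The rule was also applied to each pair of replicates, and the probes it chose were measured in the replicate that had no part in the choice. It chose 67, 69 and 49 probes when replicates 1, 2 and 3 were held out. In the held-out replicate the median difference from 0 h was 0.32, 0.38 and 0.60 at 1 h, a mean of 0.43 ± 0.15 (SD, n = 3). Between 73.9% and 93.9% of the chosen probes were above 0. At 1.5, 2, 3 and 6 h the mean was 0.36 ± 0.15, 0.15 ± 0.20, 0.07 ± 0.10 and -0.04 ± 0.05. It was -0.19 ± 0.16, -0.24 ± 0.05 and -0.21 ± 0.07 at 48, 96 and 144 h. The early rise was thus present in each held-out replicate, and the late medians lay below 0 in all 3.

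**Figure D3:**
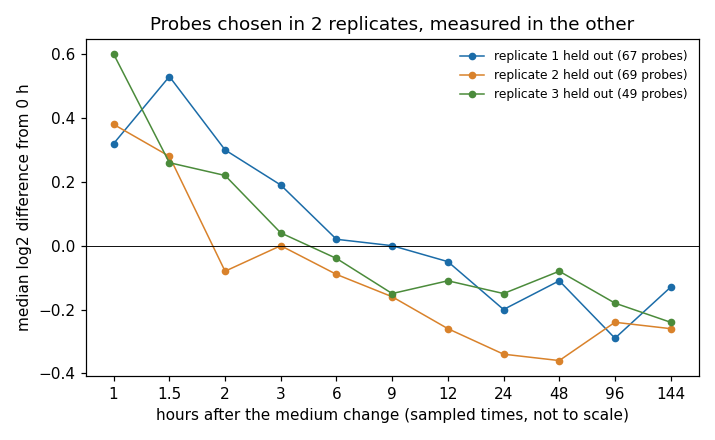
Median log2 difference from 0 h (vertical axis) at the 11 later times in a replicate that took no part in choosing the probes, for each replicate held out. The medians are between 0.32 and 0.60 at 1 h, between -0.09 and 0.02 at 6 h, and below 0 at 24, 48, 96 and 144 h.

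Between 2 h and 6 h, which the rule did not use, 9 of the 55 members fell and 0 rose past an adjusted p of 0.05 in limma. Over all 29812 probes tested, 0.50% fell and 0.272% rose. At an unadjusted p below 0.05, 2 members were higher and 18 lower, where 3.36% of all probes tested were higher and 4.45% lower. The median difference of the members was -0.22. Since members had to be high before 2 h and low from 9 h on, the rule itself favours a fall in this interval.

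Srsf5 fell most: it was at 9.80, 10.44 and 10.59 at 6 h, against 11.85, 12.18 and 12.16 at 2 h, a log2 difference of -1.79 (SE 0.20, limma adjusted p = 2e-05). Timp3 was at 11.60, 11.61 and 11.47 at 6 h, against 12.61, 13.36 and 12.83 at 2 h, a difference of -1.38 (SE 0.24, limma adjusted p = 0.0039). Hivep3 was at 9.35, 9.47 and 9.27 at 6 h, against 10.30, 10.45 and 10.48 at 2 h, a difference of -1.05 (SE 0.08, limma adjusted p = 2.6e-09). In all 3 the arrays of the 2 times do not overlap. Srf, Fam120b, Maff and Bcl2 fell by 0.66, 0.59, 0.45 and 0.39, and 2 unnamed probes fell by 0.49 and 0.70.

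The count of 9 was 1 without replicate 2, 2 without replicate 3, and 0 when only these 2 times were fitted. The calls of Srf, Timp3, Bcl2, Maff and Fam120b were lost without replicate 2 and also without replicate 3, those of Maff and Fam120b without replicate 1 too, that of Srsf5 without replicate 2, and that of Hivep3 was kept without any 1 replicate. Same-numbered arrays varied together here, and in a fit blocked on the replicate number 13 members fell, the additional ones being Ccn2 with a difference of -1.1, Edn1 with -0.49, Cirbp with -0.52 and Frmd6 with -0.47 (limma adjusted p = 0.031, 0.0080, 0.0079 and 0.0040). Under the same block Egr1 rose by 0.58 (limma adjusted p = 0.011). It was at 14.47, 14.06 and 14.22 at 6 h, against 13.54, 13.71 and 13.77 at 2 h, so its dip after the early maximum had closed at 6 h.

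At 48 h against 6 h, 6 of the 55 members rose and 14 fell, where 9.23% of all probes tested rose and 8.51% fell. At 96 h 6 rose and 20 fell, against 11.2% and 11.4% of all probes. At 144 h 7 rose and 19 fell, against 10.3% and 9.60%. The share of members that rose was 10.9%, 10.9% and 12.7%, near that of all probes each time, and the shares that fell were 25.5%, 36.4% and 34.5%. In all, 9 members rose at 1 or more of these times, 21 fell and 25 did neither. Of all probes tested, 15.4% rose at 1 or more of these times, 14.5% fell and 70.3% did neither. Every member except Atf3, but only 15715 of the probes tested, lay above the array median on all 36 arrays. The shares over all probes thus include many dim probes, whose differences are compressed. The count of risers at 48 h was 2 without replicate 2, and at 96 h it was 3 without replicate 2 and 3 without replicate 3. Members had to be high before 2 h and low at 9 to 24 h, so the rule itself can favour a fall after 6 h. Those with the early maximum at 1.5 h still had a median of 0.26 at 6 h. Of these 23 members, 10 fell at 48 h against 6 h. Those with the early maximum at 1 h had a median of -0.06 at 6 h, and 4 of these 32 fell. At 96 and 144 h against 6 h, 9 and 8 of these 32 fell, or 28.1% and 25%. Of the 23 with the early maximum at 1.5 h, 11 fell at each of these times, or 47.8%. The part of the rule in these falls was not tested.

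Sgk1 and Egr3 rose again. Sgk1 was at 12.08, 12.10 and 12.18 at 48 h, against 11.36, 11.34 and 11.55 at 6 h, a difference of 0.70 (SE 0.15, limma adjusted p = 0.00098), and at 12.32, 12.33 and 12.36 at 144 h, a difference of 0.92 from 6 h (SE 0.15, limma adjusted p = 1.9e-05). The groups do not overlap. Its dimmer member probe rose by 0.44 at 48 h and 0.46 at 144 h. Without replicate 2 both probes lost the call at 48 h and the dimmer one that at 144 h. Egr3 was at 12.90, 12.20 and 12.69 at 48 h, against 12.15, 12.12 and 11.78 at 6 h, a difference of 0.58 (SE 0.19, limma adjusted p = 0.037) whose call was lost when any 1 replicate was left out. At 144 h it was at 13.12, 12.72 and 12.65 and 0.81 above 6 h (SE 0.19, limma adjusted p = 0.0023). That call was kept under each alternative run.

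Timp3 and Lims2 rose late. Timp3 was at 12.69, 12.32 and 12.40 at 144 h, against 11.60, 11.61 and 11.47 at 6 h, a difference of 0.91 (SE 0.24, limma adjusted p = 0.0064), lost without replicate 3. Having fallen between 2 and 6 h, it is 1 of 2 members that both fell in that interval and rose at 144 h, the other being an unnamed probe. Of all probes tested 0.0772% did both. Both comparisons use the same 6 h arrays, so low values there favour the pair of calls, and the rule favours the fall. Lims2 was at 9.53, 10.12 and 10.04 at 144 h, against 9.25, 9.18 and 9.26 at 6 h, a difference of 0.67 (SE 0.12, limma adjusted p = 0.00015). It also rose by 0.62 between 48 and 144 h (limma adjusted p = 0.00086). Plk3 rose at 48 h alone among these times, by 0.42 (lost without replicate 1 or replicate 2), and was lower again at 144 h than at 48 h by a difference of -0.60 (limma adjusted p = 0.00088). Maff was higher at 96 h alone, by 0.30.

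The largest early risers gave no call at the late times. The brighter Ccn1 probe was at 11.66, 10.86 and 11.42 at 48 h, against 11.48, 10.66 and 11.17 at 6 h, a difference of 0.21 (limma adjusted p = 0.83). Ccn2 was at 13.61, 12.86 and 13.46 at 48 h, against 13.12, 12.09 and 12.88 at 6 h, a difference of 0.61 (limma adjusted p = 0.22). Against 0 h, which the rule used, they stood 0.81 and 0.76 higher at 48 h. Ankrd1 was at 13.74, 13.50 and 13.42 at 144 h, against 12.98, 12.73 and 12.97 at 6 h, a difference of 0.66 (limma adjusted p = 0.062). Each Ankrd1 array at 144 h was above each at 6 h, and the call missed the threshold. At 48, 96 or 144 h, 11 of the 55 members were at least 0.5 above 0 h, and 3 exceeded their early maximum: Lims2 with 0.94 at 144 h, and 2 unnamed probes with 0.97 and 0.72.

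The members that fell late included the receptor F3. It was at 8.57, 8.48 and 8.62 at 144 h, near the floor of the scale, against 11.34, 10.94 and 11.18 at 6 h, a difference of -2.60 (SE 0.24, limma adjusted p = 7.1e-10). Its fall was already -2.12 at 48 h. Fhl2 was at 10.90, 10.94 and 10.96 at 144 h, against 12.52, 12.22 and 12.43 at 6 h, a difference of -1.46 (SE 0.15, limma adjusted p = 8.1e-09). Lbh was at 9.51, 9.90 and 9.53 at 144 h, against 11.34, 11.24 and 10.70 at 6 h, a difference of -1.45 (SE 0.31, limma adjusted p = 0.00081). In none of these 3 do the groups overlap, and their mean 48 h levels lay between.

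Gpr176, Errfi1, Cfl1, Egr1, Hivep3 and the brighter Klf6 probe fell by 1.20, 1.22, 0.86, 0.82, 0.79 and 0.79 at 144 h against 6 h. Srf, Dusp5, Phlda1, Cd200 and Frmd6 fell by 0.63, 0.60, 0.58, 0.53 and 0.53. The other 5 were unnamed probes. Dusp1 fell at 48 and 96 h, by 0.83 and 0.70, and had a difference of -0.52 at 144 h that did not pass. The count of 19 at 144 h was 12 without replicate 3. Of the members, 12 were lower than at 6 h at all 3 late times and 4 higher at all 3, where 5.0% and 5.58% of all probes tested were.

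**Figure D4:**
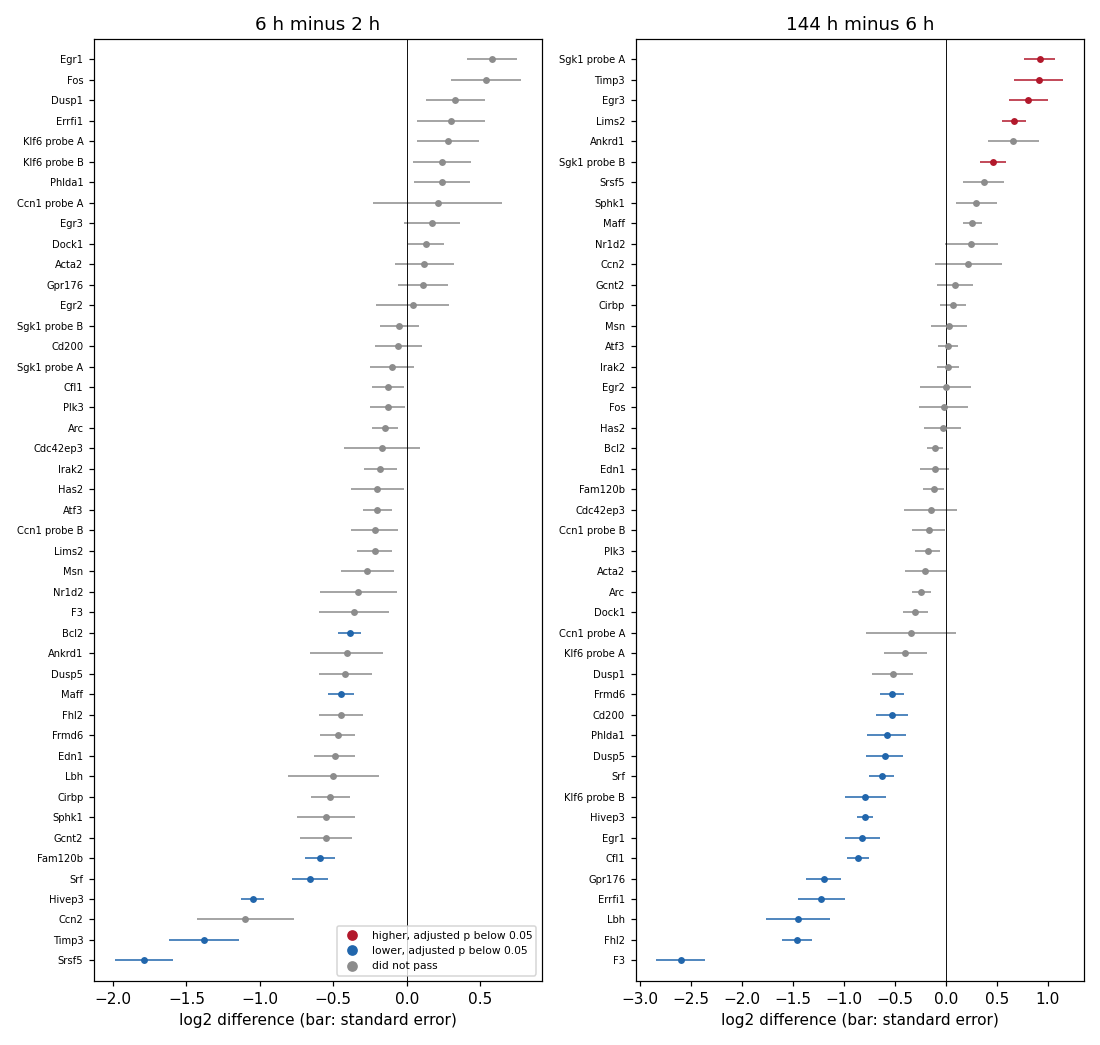
Log2 difference (horizontal axis, bars are the standard error of the fit) of the 45 members with a gene symbol at 6 h minus 2 h, left, and at 144 h minus 6 h, right, sorted within each panel; colour marks limma adjusted p below 0.05. Srsf5, Timp3 and Hivep3 fell most in the first interval, and F3, Fhl2 and Lbh in the second, where Sgk1, Timp3, Egr3 and Lims2 rose.

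**Figure D5:**
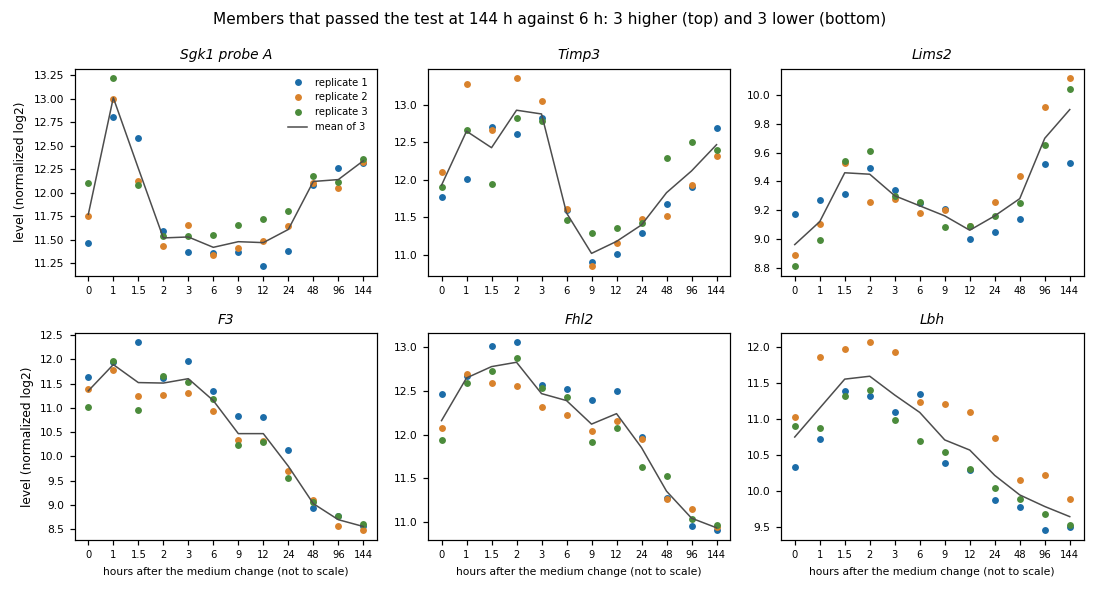
Level on the deposited log2 scale (vertical axis, scaled to each gene) on every array at the 12 times for 3 members higher, top, and 3 members lower, bottom, at 144 h than at 6 h; points are replicates and the line their mean. Sgk1 has an early and a late high level, Timp3 a low level at 6 to 12 h between them, and F3 ends near the floor.

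Between 48 and 144 h, 2 members rose and 7 fell, where 4.69% of all probes tested rose and 4.56% fell. Dusp5 was at 10.27, 10.26 and 10.33 at 144 h, against 11.42, 10.75 and 11.05 at 48 h, a difference of -0.79 (SE 0.18, limma adjusted p = 0.0034). Its level at 48 h had been 0.17 above 0 h, so the fall took it below its starting level. Errfi1, Cfl1, Egr1, Hivep3 and Arc fell by 0.74, 0.56, 0.55, 0.40 and 0.27. Without replicate 3 the counts were 0 and 2, and without replicate 2 they were 1 and 4.

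By role, the signalling enzymes and inhibitors had 3 of 9 probes higher at 48 h than at 6 h and 1 lower. The 3 higher were both Sgk1 probes and Plk3, so 1 gene is counted more than once. At 144 h against 48 h, 3 of the 9 probes were lower. The shares of all probes tested in these 3 counts were 9.23%, 8.51% and 4.56%. At 144 h against 6 h, where 9.60% of all probes were lower and 10.3% higher, the transcription factors had 5 of 12 lower and 1 higher. The secreted and surface genes had 3 of 9 lower and 1 higher. The cytoskeletal genes had 3 of 10 lower and 1 higher. With so few probes in a role, these counts describe the members and no difference between roles was tested. None of the 5 RNA-binding, survival and other genes passed at 48, 96 or 144 h against 6 h, after 3 of them had fallen between 2 and 6 h. Of all probes tested, 70.3% passed at none of these late times and 0.50% fell between 2 and 6 h.

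Of 24 immediate-early transcription factors tested, each by its brightest probe, 8 were members. The other 16 had early maxima with a median of 0.23, and 7 of them reached 0.25. The highest were Klf2 at 0.48 and Ier3 at 0.47, Jun was at 0.41 and Junb at 0.26, and Bhlhe40 was lowest at -0.10. Over the 24 genes the median difference at 6 h against 2 h was -0.01, and 2 fell, Srf and Maff.

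Of 28 feedback inhibitors of signalling and mRNA decay, Errfi1, Dusp1 and Dusp5 were members. Rgs16, Dusp6, Tnfaip3 and Gadd45b also had early maxima of at least 0.5, at 0.91, 0.83, 0.75 and 0.59, but failed another part of the rule. Socs3, a cytokine-induced inhibitor of JAK signalling, went the other way and was 1.11 below 0 h at 1 h. Of 18 early secreted factors, 4 were members, and the highest of the others was Thbs1 at 0.42. Of 13 SRF and cytoskeletal genes, Ankrd1 and Fhl2 were members by their brightest probe. The other 11, also by their brightest probe, had early maxima with a median of 0.09. These ranged from -0.11 for Flna to 0.41 for Tagln, so most genes of this list moved little. Of 14 clock genes Nr1d2 alone was a member, and the other 13 had early maxima of at most 0.16.

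Different probes of a gene often disagreed. Of the 42 genes, 22 have another probe that is not a member, and 35 such probes in 18 genes passed the filter. Their median early maximum was 0.03, against 0.01 over all probes tested, 17 were above 0 in all 3 replicates, and 11 were at or below 0. For Msn the brightest probe, at 14.31, had a difference of -0.21 at 1 h, where the member probe was 0.64 above 0 h. For Cd200 a brighter probe was 0.18 below. The other Bcl2 probes that passed had early maxima between -0.11 and 0.08, and the brightest of them, at 9.16, was 0.08 below 0 h at 1 h. Of 3 other Acta2 probes that passed, one rose by 0.92 and stayed 0.61 above 0 h at 9 to 24 h, and the brightest had the same mean level as the Actb probe at 0 h, 15.98, so assignment among the near-identical actins is uncertain. Ccn1, Sgk1 and Klf6 each had 2 member probes. Below the threshold, other probes of Srsf5, Cdc42ep3, Fam120b and Timp3 were above 0 h in all 3 replicates, with early maxima of 0.40, 0.40, 0.38 and 0.28. The remaining Fam120b probes that passed had early maxima between -0.03 and 0.0.

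At the thresholds of the rule, the members with the smallest early maxima were Atf3 and Lims2 at 0.504 and Cfl1 at 0.508. Just outside lay an unnamed probe at 0.491 and Hmox1 and Slc30a1 at 0.482. Acta2 and an unnamed probe at 0.244 and Cd200 at 0.240 were nearest below the limit on the mean of 9, 12 and 24 h, and Sdc4 at 0.277, Dusp6 at 0.293 and an unnamed probe at 0.303 were nearest above it.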

How the data were processed

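Total RNA of C2C12 cultures was amplified, labelled with biotin and hybridised to 36 arrays, per the labels' protocols. Raw values, as deposited, are intensity on a linear scale, with no background subtraction visible. The deposited normalized table holds log2 values made by the authors. How they were normalized is, in the sources used here, not stated. It ranks probes within an array as the raw table does. Members and all tests use the deposited log2 values. The number of arrays limits the precision: the standard error of a member's log2 difference was 0.07 to 0.44, with a median of 0.17.

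Probes were named by matching 44505 of 46019 to platform identifiers whose 36 values were equal to 5 decimals. Of these 28471 have 1 symbol and 10 several, and 17538 probes have none. For 28420 probes the gene was found in the RefSeq table of GRCm38.p6 and its symbol was taken from there, whether or not it differed. The platform annotation can be old.

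Probes brighter than the median of the array in the raw values of 3 or more arrays were tested, 29812 in all with every one of the 55 members. A limma 3.58.1 model (R 4.3.3) with a mean for each of 12 times and an intensity trend was fitted to all 36 arrays. P-values were two-sided and adjusted within a comparison over all tested probes by the Benjamini-Hochberg method. They measure the spread between arrays of 3 growths of 1 line. The fit was tested on simulated data. Python 3.11.15, pandas 2.3.3 and matplotlib 3.10.9 were used.

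Same-numbered arrays were counted as varying together where all 3 correlations of their deviations from the time means were above 0.1. The main fit has no block for the replicate number, so its calls do not use any pairing. With the replicate number as a block, 8 members rose and 21 fell at 96 h against 6 h. At 144 h against 6 h, 9 rose and 22 fell under that block. The correlations were all above 0.1 for 6 h with 2 h (lowest 0.56), 96 h with 6 h (0.16) and 144 h with 6 h (0.42). They were not for 48 h with 6 h (-0.09) or 144 h with 48 h (-0.27). A shared chip can also make arrays alike.

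The members and gene lists were chosen with earlier results of these data known. The rule for named genes took the 20 named members with the largest early maximum, the 5 largest rises and falls at 48 h and at 144 h against 6 h, members in a gene list, and those nearest the thresholds. Other members, the roles and the motifs were chosen after their values were seen. Alternatives were 3 other normalizations of the raw table (normexp offset 50), no or a stricter filter, the replicate or chip as a block, fits of 2 times, and leaving out each replicate.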

Additional observations from a re-analysis of the deposited data

How the results depend on the processing

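Of 286 gene calls under alternatives, 242 were kept, 44 kept the direction without passing and 0 reversed. Leaving out 1 replicate moved the counts of members between these lowest and highest values: 6 h against 2 h lower 1 to 7 (9 with all arrays), 48 h against 6 h higher 2 to 4 (6) and lower 9 to 12 (14), 96 h against 6 h higher 3 to 5 (6), 144 h against 6 h lower 12 to 17 (19), 144 h against 48 h higher 0 to 2 (2) and lower 2 to 7 (7). These fits hold fewer arrays. With only the 2 times fitted, the counts were 0 lower at 6 h against 2 h, 3 higher at 48 h against 6 h, and 0 higher and 1 lower at 144 h against 48 h. With median scaling of the raw table they were 3 lower at 6 h against 2 h, 2 higher at 48 h and 2 higher at 96 h against 6 h, and the cause was not tested. With the replicate number as a block, 1 member was higher at 6 h against 2 h and 12 were lower at 144 h against 48 h. With the chip as a block these were 1 and 13, with 14 lower at 6 h against 2 h and 4 higher at 144 h against 48 h.

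The rule found 160 members after normexp and quantile normalization of the raw table, 51 of them shared with the 55, and 111 after median scaling, 42 of them shared. A rise of at least 1 left 11. In held-out replicates, normexp and quantile normalization gave medians of 0.18 at 1 h, 0.20 at 1.5 h, and -0.02, -0.05 and -0.06 at 48, 96 and 144 h. With a rise of at least 1, which chooses fewer probes, they were 1.45, 0.58, 0.30 and 0.09 at 1, 1.5, 3 and 6 h, and turned positive later, at 0.26, 0.09 and 0.09 at 48, 96 and 144 h. The late medians in held-out replicates thus changed sign at the stricter cut-off and changed in size with the normalization. A link with the size of the early rise was not tested. Differences of dim probes are compressed on the deposited scale.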
